A study of Rattus norvegicus with 196 samples.

Results

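The ventromedial hypothalamus (VMH) was compared between rats treated with the antidepressant fluoxetine (FT) and control rats (Sham). Members were the samples whose region label is VMH, namely 4 FT and 4 Sham samples, which is 8 of the 196 samples and 1 of the 25 brain regions of the series. All groups were male Long-Evans rats that were 2 months old at the start and carried no engineered allele. FT rats received fluoxetine in their drinking water for 6 weeks at a target of 18 mg/kg body weight per day, and Sham rats received water alone. Each sample pooled tissue punches of the region from 10 animals, so that the spread between samples is a spread between pools and not between animals. Samples carry the replicate numbers 1, 3, 4 and 5, and the FT and Sham samples that share a number are called a pair. The study made total RNA libraries and counted reads on 29188 Ensembl transcripts.

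The VMH is a medial nucleus of the tuberal hypothalamus known for its part in satiety, glucose counter-regulation, defensive behaviour and female sexual behaviour. Its principal neurons release glutamate, loaded into vesicles by the transporter encoded by Slc17a6, and most develop under the transcription factor Nr5a1. It borders the arcuate nucleus, the dorsomedial nucleus and the lateral hypothalamus (LH), whose neurons make peptides such as galanin, RFamide-related peptide and orexin. Fluoxetine blocks the serotonin transporter, and serotonergic axons from the raphe reach the VMH.

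The libraries held between 5941005 and 15642527 reads on transcripts, with both lowest totals in replicate 3. Replicate 3 also stood apart in composition, since its 50 most abundant transcripts took 71.8% of the counts in Sham and 62.7% in FT, against 26.1% to 37.2% in the other libraries. The most abundant transcript alone took 42.9% in Sham and 23.7% in FT of this replicate. Its TMM scaling factors were 0.39 in Sham and 0.49 in FT, against 1.09 to 1.58 in the other libraries. Scaled levels of replicate 3 are therefore raised relative to its plain share of reads. The labels record that the raw reads of Sham replicate 1 are corrupted, and its deposited counts were used here. In the bulk tissue, fewer cells of a type and less RNA per cell cannot be told apart. Of the 9 marker genes chosen for VMH neurons, Slc17a6 alone could be traced to a transcript, and Nr5a1 and the others were not analysed here. Slc17a6 had 270, 190, 264 and 162 CPM (counts scaled to a common library size with TMM factors) in Sham replicates 1, 3, 4 and 5. In FT it had 89.3, 91.6, 216 and 227 CPM. The FT values of replicates 1 and 3 lay below every Sham value, whereas those of replicates 4 and 5 lay within the Sham range. The log2 fold-change (log2FC, FT over Sham) was -0.61 with a standard error of 0.35 (edgeR adjusted p = 0.438).

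Across the 13358 transcripts that passed a filter on low counts, no transcript was a differentially expressed gene (DEG) with edgeR, defined as an adjusted p no higher than 0.1 together with a log2FC beyond 0.32 in either direction. The share called was 0%. The same fit without the filter called 136 transcripts, 134 of which pass the filter, so the count of 0 depends on that setting. At an unadjusted p under 0.05, 984 transcripts were higher in FT (7.37%) and 924 were lower (6.92%). DESeq2 with the same pairs called 550 of the 10686 transcripts to which it gave an adjusted p (5.15%), 388 higher (3.63%) and 162 lower (1.52%). It was run on the counts before the filter on low counts, so the tools differ in filter as well as in test. FT was higher than Sham in 4 of 4 pairs for 1856 transcripts (13.9%) and lower in 4 of 4 pairs for 1606 (12%). A single transcript taken alone cannot go below p = 0.125 in a two-sided exact test that swaps the labels of 4 pairs. Gene names were at hand for 1829 of the transcripts tested. The study had listed each of these as altered in 2 or more regions of the same animals, so their shares are not independent of its calls. Among named transcripts, 28.6% were higher and 15.3% lower at an unadjusted p under 0.05, and DESeq2 called 18.4% higher and 6.4% lower. Every FT value lay above every Sham value in 4.48% of the named transcripts and below in 3.28%.

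Avp, Oxt, Hcrt and Gal were 4 of the peptide genes higher in FT in each pair, as Npvf, Vgf and Cck also were. The upstream sequences of these 4 are shown here. They are the 250 bases before the annotated start in the RefSeq rat assembly GRCr8, which is not the build of the counts. They cover chr3:138248523-138248772 for Avp on the minus strand and chr3:138235504-138235753 for Oxt on the plus strand. They cover chr10:86191525-86191774 for Hcrt and chr1:210084573-210084822 for Gal, both on the minus strand. Capitals mark exact matches to any of 3 motifs searched on both strands. Variants of a motif were not searched, so a window without capitals may still hold one. The first was TATAAA, the core of the TATA box. The second was CACGTG, the E-box that clock and other bHLH factors bind. The last was TGACGTCA, the cAMP response element.
Avp: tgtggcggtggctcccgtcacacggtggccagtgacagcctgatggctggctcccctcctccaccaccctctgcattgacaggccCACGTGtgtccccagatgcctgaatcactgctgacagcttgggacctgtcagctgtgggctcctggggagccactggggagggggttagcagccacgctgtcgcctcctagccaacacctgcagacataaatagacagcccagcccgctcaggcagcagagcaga
Oxt: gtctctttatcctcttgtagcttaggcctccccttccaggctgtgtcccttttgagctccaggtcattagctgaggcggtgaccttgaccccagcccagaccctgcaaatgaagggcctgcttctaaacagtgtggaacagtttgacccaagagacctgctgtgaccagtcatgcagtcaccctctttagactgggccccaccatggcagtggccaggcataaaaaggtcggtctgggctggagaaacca
Hcrt: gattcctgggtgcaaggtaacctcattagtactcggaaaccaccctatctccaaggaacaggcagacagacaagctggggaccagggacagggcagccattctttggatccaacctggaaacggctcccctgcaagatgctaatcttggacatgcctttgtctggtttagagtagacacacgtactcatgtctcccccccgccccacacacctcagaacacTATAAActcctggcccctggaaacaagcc
Gal: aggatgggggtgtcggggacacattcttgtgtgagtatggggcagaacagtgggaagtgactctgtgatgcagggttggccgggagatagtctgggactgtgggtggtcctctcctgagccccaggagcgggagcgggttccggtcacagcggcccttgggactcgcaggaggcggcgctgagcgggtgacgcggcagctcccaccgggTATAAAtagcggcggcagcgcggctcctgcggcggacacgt
Avp and Oxt lie next to each other on chromosome 3 on opposite strands. TATAAA starts 29 bases before the start of Hcrt and 41 before that of Gal, and is present in 12.9% of 33469 such windows. CACGTG is present upstream of Avp, 165 bases before the start, and in 5.59% of windows. TGACGTCA is present in none of the 4 and in 1.59% of windows.

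Avp, the gene of the antidiuretic hormone vasopressin, had 15.8, 1289, 10.3 and 9.42 CPM in Sham replicates 1, 3, 4 and 5. In FT it had 124, 11374, 30.0 and 30.7 CPM. Within each pair FT was the higher, but the levels of replicate 3 were far above all others in both groups and the groups overlapped. The log2FC was 2.35 with a standard error of 0.37 (edgeR adjusted p = 0.291), and DESeq2 called it higher (adjusted p = 1.13e-07). Without replicate 3 the log2FC was 2.10. Oxt, which encodes oxytocin and is made by the same kind of magnocellular neuron, had 10.4, 2545, 7.61 and 5.91 CPM in Sham and 34.9, 13103, 10.2 and 9.48 CPM in FT. The log2 ratios of its 4 pairs were 1.73, 2.36, 0.41 and 0.67, so that the difference was small in replicates 4 and 5. Its log2FC was 1.32 with a standard error of 0.38, and 0.98 without replicate 3.

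Hcrt encodes orexin, a wake-promoting peptide of the LH. It had 89.5, 839, 9.80 and 20.5 CPM in Sham and 196, 1840, 35.1 and 83.2 CPM in FT. FT was higher in each pair, with log2 ratios of 1.13, 1.13, 1.82 and 2.01, while the levels of the replicates were further apart than those of the groups. The log2FC was 1.53 with a standard error of 0.27, and DESeq2 called it higher (adjusted p = 2.42e-05). Gal, which encodes galanin, a peptide that stimulates feeding, had 109, 73.9, 36.6 and 72.9 CPM in Sham. Its FT values were 212, 154, 91.1 and 146 CPM. The ranges of the groups overlapped, while the pair ratios were close to each other, between 0.96 and 1.31 on the log2 scale. Npvf, the precursor of RFamide-related peptides that restrain gonadotropin release, had 38.2, 33.3, 22.6 and 7.80 CPM in Sham and 103, 62.3, 29.4 and 20.3 CPM in FT. Its log2FC was 1.03 with a standard error of 0.26.

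Of the 28 symbols listed for neuropeptides and their processing, 18 could be traced to transcripts and 17 transcripts were tested. In this list 9 were higher in FT and 1 was lower at an unadjusted p under 0.05, against 28.6% and 15.3% of all named transcripts. DESeq2 called 9 higher and none lower, against 18.4% and 6.4% of all named transcripts, and edgeR called 0. The median log2FC of the list was 1.03, against 0.16 for all named transcripts and -0.05 for all transcripts tested. Vgf, a granin-like precursor whose peptides act on energy balance, had a log2FC of 1.21, and Cck, the precursor of cholecystokinin, one of 1.11. Both were higher in FT in 4 of 4 pairs. The inhibitor of prohormone convertase Pcsk1n was counted on a pair of transcripts, with log2FC values of 1.48 and 1.31. These share sequence, so that the split of reads between them is uncertain, and FT was not higher in pair 5 for either. The exception was Tacr3, the receptor of neurokinin B, with 9.45, 13.2, 13.5 and 11.1 CPM in Sham and 3.06, 5.75, 8.53 and 7.26 CPM in FT. Every FT value of Tacr3 lay below every Sham value, and the log2FC was -1.01 with a standard error of 0.29. The remaining members did not pass an unadjusted p under 0.05 in either direction. Somatostatin (Sst) had a log2FC of 0.67, with pair ratios of 1.63, 1.29, 0.22 and -0.50. Nmb, Cartpt, Vip, Pcsk2, PENK and Chga had log2FC values between -0.43 and 0.37.

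**Figure D1:**
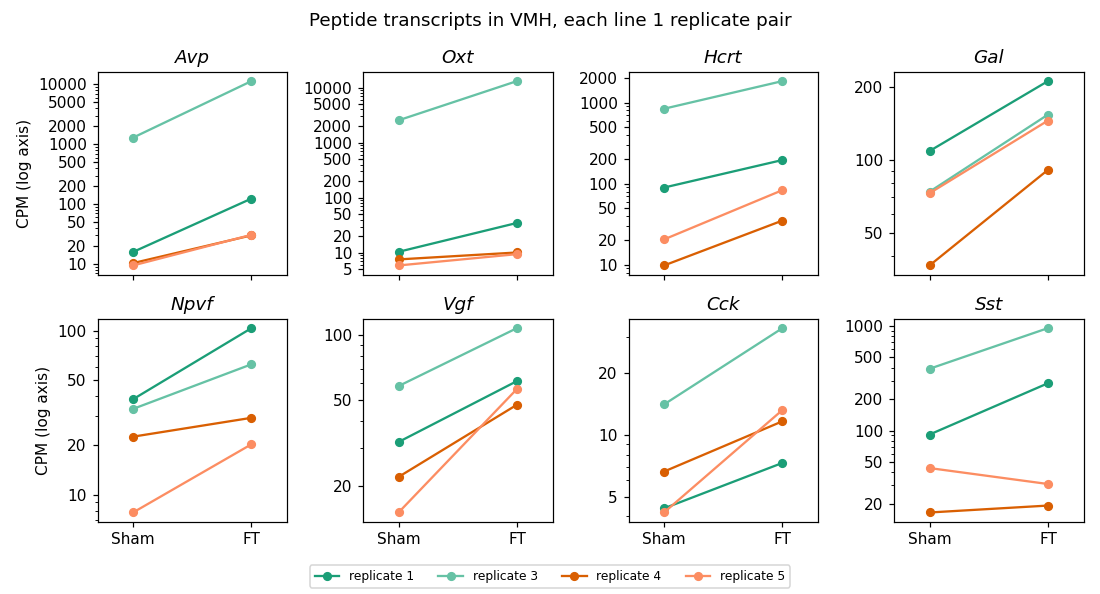
Level of 8 peptide transcripts in CPM on a log axis, in Sham and FT, with 1 line for each replicate pair. Avp, Oxt and Hcrt of replicate 3 lie far above the other replicates in both groups, FT is above Sham in 4 of 4 pairs for all but Sst, and for Sst in 3 of 4.

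Several of these peptides mark neighbouring nuclei rather than the VMH. In Sham, Avp and Oxt together ranged from 15.3 to 3834 CPM and in FT from 40.1 to 24477 CPM. The other markers of paraventricular and supraoptic neurons on the list (Crh, Trh and Sim1) were not analysed here. Hcrt was the only traced marker of the LH, and ranged from 9.80 to 839 CPM in Sham and from 35.1 to 1840 in FT. The 3 markers of the dorsomedial nucleus (Gal, Npvf and Ppp1r17) summed to 72.8 to 167 CPM in Sham and 148 to 329 in FT. Th and Cartpt, made by arcuate neurons among others, had log2FC values of 0.90 and 0.23. The part of differences in dissection in the peptide results was not tested. Over 97 Sham libraries of the 25 regions, the median level in the VMH was the highest for Avp (13.6 CPM) and Hcrt (57.8 CPM), and for Oxt was 9.34 CPM beside 8.82 in the LH. These medians pool replicates that ranged from 5.80 to 2335 CPM for Oxt in the VMH, and regions do not all hold the same replicates, so the order is a description. It ranked after the arcuate nucleus for Npvf, with medians of 26.5 and 97.2 CPM, and had rank 4 for Slc17a6, at 218 CPM against 404 in the region labelled MDT.

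The Sham VMH was compared with the Sham LH to describe the region itself. In this comparison edgeR called 1515 of 13634 transcripts, 700 higher in the VMH (5.13%) and 815 lower (5.98%), and DESeq2 called 1020 (7.01%). Cga, the common subunit of the glycoprotein hormones, had 12.0, 9.19, 24.2 and 21.9 CPM in the VMH and no more than 1.36 CPM in the LH. Its log2FC of VMH over LH was 5.11 with a standard error of 0.30 (edgeR adjusted p = 5.27e-09). Npvf was higher in the VMH by a log2FC of 3.25 and the extracellular matrix gene Ogn by 1.61. Lower in the VMH were the calcium-binding protein gene Pvalb (-2.73), the extrasynaptic GABA-A receptor subunit gene Gabrd (-2.99), Cck (-2.48), the sodium channel subunit gene Scn4b (-2.28) and Vip (-2.14). Without the pairing by replicate number, none of the 1515 calls was made, and the count fell to 798 without replicate 4 and to 870 without replicate 5.

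Apart from the peptides, the FT differences with the lowest p among named transcripts higher in 4 of 4 pairs were those of Trim28, Arhgdig, Gp1bb, RPS2-PS6, Spr and Sap30l. Trim28 encodes a corepressor that recruits heterochromatin enzymes. It had 69.8, 65.8, 94.1 and 77.9 CPM in Sham and 173, 138, 277 and 223 CPM in FT. Every FT value lay above every Sham value, which held for 201 of all transcripts tested (1.5%). The log2FC of Trim28 was 1.37 with a standard error of 0.22 (edgeR adjusted p = 0.291, DESeq2 adjusted p = 1.73e-05). Sap30l, a subunit gene of the Sin3 histone deacetylase complex, had 14.1, 16.7, 8.07 and 9.48 CPM in Sham. Its FT values of 31.3, 27.8, 32.7 and 32.1 CPM lay above all of these and close to each other. Gp1bb had a log2FC of 1.60 from levels of 2.29 to 6.84 CPM in Sham and 8.94 to 18.45 CPM in FT, again without overlap. Arhgdig had a log2FC of 1.296 with pair ratios of 1.15 to 1.49. RPS2-PS6, with a log2FC of 1.69, is a pseudogene copy of the ribosomal gene Rps2, and reads may be split between the 2 loci. Otub1, a deubiquitinase gene, had 844, 343, 277 and 385 CPM in Sham and 1533, 642, 989 and 1274 CPM in FT. The groups overlapped through Sham replicate 1, and the log2FC was 1.33 with a standard error of 0.28.

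Among the 8 lower genes named by p, Mat2a had the largest difference. It encodes the enzyme that makes S-adenosylmethionine, the methyl donor of the cell. It had 18.5, 65.8, 95.6 and 94.0 CPM in Sham and 5.49, 36.3, 14.9 and 14.3 CPM in FT. FT was the lower in each pair, most in replicates 4 and 5, and Sham replicate 1 lay within the FT range. The log2FC was -2.02 with a standard error of 0.35 (edgeR adjusted p = 0.291, DESeq2 adjusted p = 0.000261). Opcml, a cell adhesion gene of the IgLON family, had 52.9, 65.8, 66.6 and 61.9 CPM in Sham and 25.8, 28.4, 31.6 and 28.2 CPM in FT. Its groups were well apart and its pair ratios lay between -1.21 and -1.03, the narrowest spread of the lower genes named here. The adjusted p of Opcml was 0.291 with edgeR and 0.00789 with DESeq2. Alg13, Sh3bgrl and Fstl5 also had every FT value below every Sham value, which held for 226 of all transcripts tested (1.69%). Their log2FC values were -1.67, -1.12 and -1.52. Asb4, a gene with known expression in hypothalamic neurons of the arcuate nucleus, had a log2FC of -1.65 from 2.56 to 11.5 CPM in Sham and 0.60 to 4.83 CPM in FT. Trove2 and the synapse organiser Lrrtm2 had log2FC values of -1.47 and -1.43.

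The 8 higher and 8 lower genes named by p were chosen for a small edgeR p in these libraries, so counts over them are a description. These genes also had to have 4 of 4 pairs in 1 direction, so the agreement of their pairs was fixed by that choice. Of the 21 genes named by p or taken from the study, DESeq2 called 20, against 24.7% of all named transcripts. With edgeR 0 were called, at adjusted p between 0.291 and 0.443. The gene not called by DESeq2 was Cds2, which makes CDP-diacylglycerol for phosphoinositide synthesis. Cds2 had 0.56, 79.5, 5.01 and 5.52 CPM in Sham and 1.08, 89.2, 0.82 and 0.87 CPM in FT. FT was therefore lower in replicates 4 and 5 and higher in replicates 1 and 3, and the log2FC was -1.04 with a standard error of 0.61. Napb, which encodes a protein of synaptic vesicle fusion, had pair ratios of -0.45, -1.13, -2.41 and -1.79. Cirbp, a cold-inducible RNA-binding protein gene, had pair ratios of 0.92, 0.38, 2.60 and 2.65. Grin2c, an NMDA receptor subunit gene, had 6.05 to 8.12 CPM in Sham and 9.85 to 15.7 CPM in FT without overlap, and a log2FC of 0.89.

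**Figure D2:**
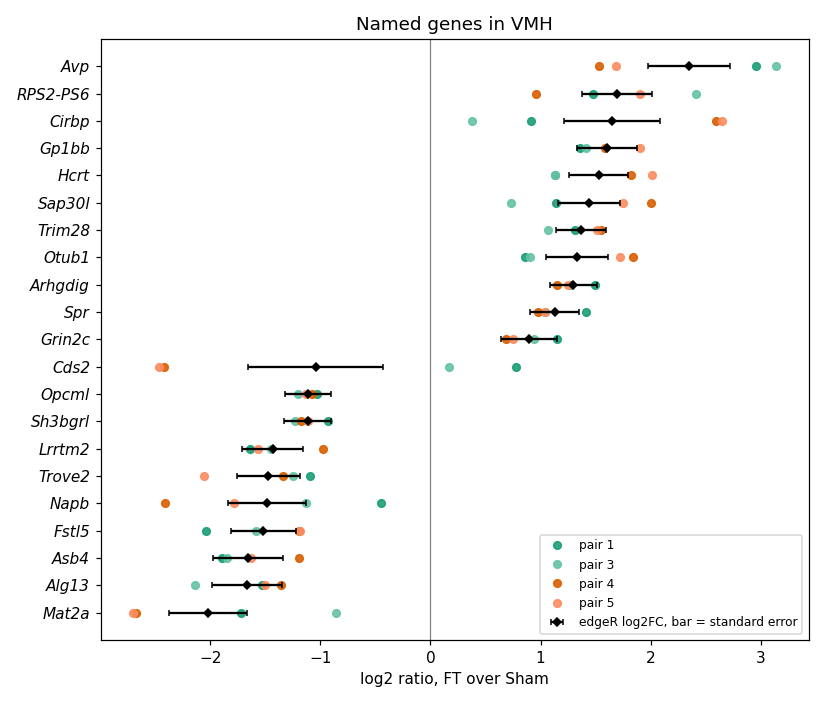
log2 ratio of FT over Sham for the 21 genes, with 1 point for each replicate pair, and the edgeR log2FC as a diamond with its standard error. For 20 of the 21 genes all 4 pairs lie on the same side of 0. For the genes named by p this was a condition of their choice, so their agreement is no result. Of all named transcripts, 31.5% were higher and 14.9% lower in 4 of 4 pairs. The pairs of Cds2 lie on both sides, with pairs 4 and 5 near -2.4.

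The log2 ratios of FT over Sham correlated between pairs 1 and 3 with r = 0.58 and between pairs 4 and 5 with r = 0.55, over 13358 transcripts, which are not independent and share library and depth. Between a pair of the first kind and one of the second, r lay between -0.09 and 0.02. Of the 2032 transcripts that differed by at least 2-fold in both pair 1 and pair 3, 1884 differed in the same direction. Across the 2 sets this was so for 259 of 556 transcripts in pairs 1 and 4, 282 of 769 in pairs 1 and 5, 176 of 363 in pairs 3 and 4 and 230 of 496 in pairs 3 and 5. Reads outside annotated features made up 24.3% (Sham) and 18.7% (FT) in replicate 1, 34.9% and 39.6% in replicate 3, 42.4% and 46.7% in replicate 4, and 44.1% and 40.5% in replicate 5. Whether a difference in library processing moves with these pairs was not tested.

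**Figure D3:**
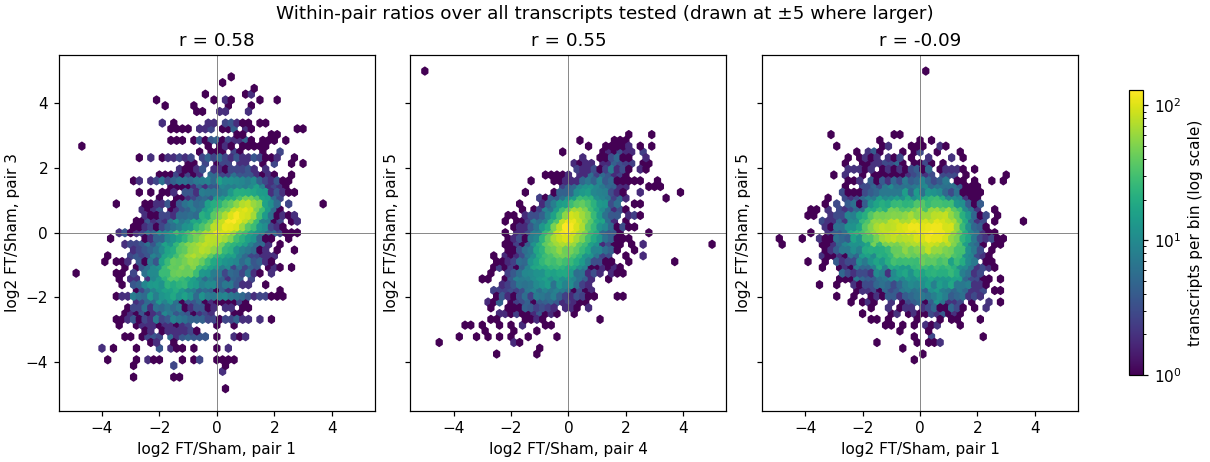
log2 ratio of FT over Sham in one pair against another, for 13358 transcripts, with colour for the number of transcripts per bin. Pairs 1 and 3 and pairs 4 and 5 lie along the diagonal (r = 0.58 and 0.55), and pairs 1 and 5, the lowest of the 4 pairings across the sets, form a cloud without slope (r = -0.09).

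All 8 measured respiratory chain transcripts of the mitochondrial genome had a negative log2FC, with a median of -0.95. Of these, 5 were lower in FT and none higher at an unadjusted p under 0.05, and DESeq2 called 5 lower. Over all named transcripts, 15.3% were lower at that p and DESeq2 called 6.4% lower. MT-ND5, a subunit of complex I, had 1999.7, 3687, 2382 and 1715 CPM in Sham and 334, 756, 1312 and 1311 CPM in FT. Its groups did not overlap, and the difference was largest in replicates 1 and 3. The sum over the 8 transcripts ranged from 20475 to 98778 CPM in Sham and from 17945 to 41972 CPM in FT. The median ratio of the list was -1.68, -1.63, -0.85 and -0.15 in pairs 1, 3, 4 and 5. Of the nuclear genes of the respiratory chain, 8 of 32 were higher at an unadjusted p under 0.05 and 1 was lower, with a median log2FC of 0.52. DESeq2 called 6 higher and 1 lower. Among all named transcripts 28.6% were higher at that p and DESeq2 called 18.4% higher, so the counts of this list lie near that background. Ndufb2, of complex I, had a log2FC of 1.20 and Ndufs8 one of 0.84, while Uqcrc2, of complex III, had one of -1.10. Proteins of the mitochondrial ribosome and import machinery had a median log2FC of 0.50. Of these 34 transcripts, 11 were higher and none lower at an unadjusted p under 0.05, and DESeq2 called 11 higher, against 28.6% and 18.4% of all named transcripts. Mrps34, a ribosomal protein gene, had 32.7, 76.5, 13.3 and 14.0 CPM in Sham and 88.8, 133, 29.4 and 26.5 CPM in FT, with FT higher in each pair. Tomm6, of the outer membrane import pore, had a log2FC of 0.97 with pair ratios of 0.87 to 1.06.

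For the cytosolic ribosome, the median log2FC of 27 transcripts was -0.05, against 0.16 for all named transcripts and -0.05 for all transcripts, with pair medians of 0.65, 0.38, -0.65 and -0.16, and its sign was positive with median-ratio scaling and without the pairing. Rps2 and Rpl13 had log2FC values of 1.12 and 0.90 and Rpl23a one of -0.95. By an unadjusted p under 0.05, 6 were higher and 2 lower, against 28.6% and 15.3% of all named transcripts.

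Among genes of monoamine synthesis and signalling, all 6 transcripts tested had a positive log2FC, with a median of 0.75. At an unadjusted p under 0.05, 4 of 6 were higher, and DESeq2 called 3 higher, against 28.6% and 18.4% of all named transcripts. Spr, which encodes sepiapterin reductase, the last enzyme of tetrahydrobiopterin synthesis, had 25.3, 44.0, 7.78 and 10.5 CPM in Sham. In FT it had 67.8, 90.7, 15.4 and 21.7 CPM, higher in each pair with overlap between the groups, and the log2FC was 1.13 with a standard error of 0.22. Th, the rate-limiting enzyme of catecholamine synthesis, had 18.4, 20.1, 17.3 and 27.0 CPM in Sham and 41.3, 43.9, 39.1 and 29.7 CPM in FT. The groups did not overlap, although the ratio of pair 5 was 0.14. Gchfr, which regulates the first enzyme of tetrahydrobiopterin synthesis, and Qdpr, which regenerates the cofactor, had log2FC values of 1.02 and 0.59. The serotonin receptor gene Htr1a had 3, 8, 9 and 26 reads in Sham and 9, 7, 1 and 0 reads in FT and did not pass the filter. The serotonin transporter and Tph2 were not analysed here.

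Of 18 receptors and transporters of GABA, glutamate and acetylcholine, 9 were lower and 1 (Grin2c) was higher at an unadjusted p under 0.05, against 15.3% and 28.6% of all named transcripts, and the median log2FC was -0.66. DESeq2 called 4 lower and 1 higher, against 6.4% and 18.4% of all named transcripts. Gad2, an enzyme of GABA synthesis, had 73.4, 105, 62.2 and 95.04 CPM in Sham and 36.1, 54.4, 51.4 and 33.2 CPM in FT. Every FT value lay below every Sham value, and the log2FC was -0.94 with a standard error of 0.26. The GABA-A receptor subunit genes Gabrb2 and Gabrg1 had log2FC values of -1.42 and -0.96. Ion channel genes had a median log2FC of -0.83, with 10 of 19 lower and 2 higher at an unadjusted p under 0.05. DESeq2 called 6 lower and 1 higher. Cacnb4, a calcium channel subunit gene, had 62.7, 34.6, 84.0 and 70.7 CPM in Sham and 34.5, 16.0, 48.4 and 25.2 CPM in FT, lower in each pair with overlapping groups. The potassium channel gene Kcna2 had a log2FC of -1.95 from at most 8.55 CPM, and the chloride transporter gene Clcn4 one of -1.29.

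Synaptic genes had a median log2FC of -0.52 over 24 transcripts, but pair medians of 0.39, 0.33, -0.75 and -0.79, and the median was 0.10 without the pairing. At an unadjusted p under 0.05, 6 were lower and 2 higher, against 15.3% and 28.6% of all named transcripts. Lrrtm4, an organiser of excitatory synapses, had 2.75, 2.56, 23.7 and 22.4 CPM in Sham and 1.302, 0.91, 9.66 and 5.58 CPM in FT. It was lower in each pair, while replicates 4 and 5 lay above replicates 1 and 3 in both groups. Lrtm2 had a log2FC of 1.43.

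Genes of energy balance and hormone sensing were divided. Of 13 transcripts, 3 were higher and 4 lower at an unadjusted p under 0.05, against 28.6% and 15.3% of all named transcripts. The lower ones included Prkaa2, the catalytic subunit of the energy sensor AMP-activated kinase. Prkaa2 had 8.63, 5.13, 6.396 and 8.81 CPM in Sham and 1.47, 0.91, 4.70 and 3.70 CPM in FT, without overlap, and its log2FC was -1.53 with a standard error of 0.43. Its upstream kinase gene Stk11 had a log2FC of 0.77 and the retinoid receptor gene Rxrb one of 0.88. The leptin receptor, the melanocortin receptor Mc4r and the oestrogen receptor Esr1, genes by which the VMH is often described, were not analysed here.

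Clock output and activity-dependent genes had 5 measured members, all with a positive log2FC and 4 with an unadjusted p under 0.05. DESeq2 called Dbp and Cirbp. Over all named transcripts, 28.6% were higher at that p and DESeq2 called 18.4% higher. Dbp, a circadian transcription factor driven by the core clock, had 61.2, 47.0, 51.7 and 45.1 CPM in Sham and 111, 83.8, 139 and 135 CPM in FT. The groups did not overlap, and the log2FC was 1.18 with a standard error of 0.24. The immediate early gene Fos had a log2FC of 0.62 with a pair ratio of -0.01 in pair 3, and Nab2 one of 0.68. By the study's methods, animals of both groups were sacrificed within the same late-morning window. Time of day within that window was not tested as a factor.

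Among chromatin regulators, 12 of 36 were higher and 2 lower at an unadjusted p under 0.05, and DESeq2 called 7 higher and none lower. These counts lie near the shares of all named transcripts (28.6% and 18.4%), as did the median log2FC of 0.17 (0.16 for all named), which was 0.53 without the pairing. Beside Trim28 and Sap30l, the chromatin remodelling subunit genes Smarcd3 and Smarcd2 had log2FC values of 1.02 and 0.87. Ubiquitin and proteasome genes had a median of 0.08, with 8 of 30 higher and 4 lower at that p, near the 28.6% and 15.3% of all named transcripts. The median was 0.48 without the pairing. Skp1, the adaptor of SCF ubiquitin ligases, had 1698, 1494, 1357 and 935 CPM in Sham and 554, 469, 660.03 and 669.96 CPM in FT. Every FT value was below every Sham value, and the log2FC was -1.20. The proteasome subunit genes Psmb10 and Psmd10 had log2FC values of 0.92 and -1.10.

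**Figure D4:**
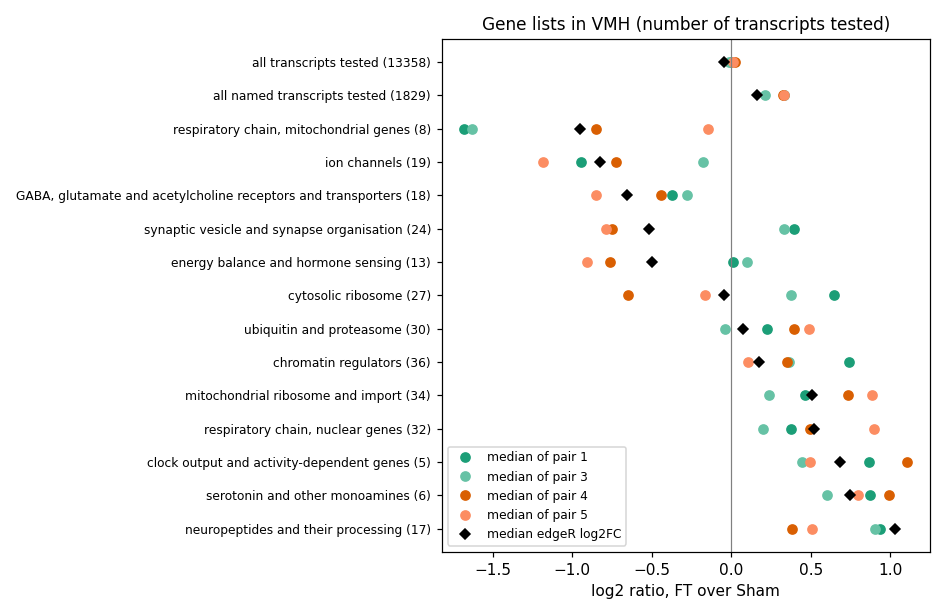
Median log2 ratio of FT over Sham for all transcripts, named transcripts and 13 gene lists, with the number of transcripts tested in brackets, 1 point for each replicate pair and the median edgeR log2FC as a diamond. All named transcripts have 4 pair medians above 0 (0.33, 0.21, 0.32 and 0.33), as have several lists. Ion channels, transmitter receptors and mitochondrial genome transcripts have 4 below 0, and synaptic genes have pairs 1 and 3 above and pairs 4 and 5 below 0.

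Markers of glia were mixed in direction. For comparison, 28.6% of all named transcripts were higher and 15.3% lower at an unadjusted p under 0.05. Of 17 oligodendrocyte transcripts, 3 were higher and 5 lower at an unadjusted p under 0.05, with a median log2FC of -0.50. Ermn, a cytoskeletal protein of myelinating cells, had 234, 256, 266 and 211 CPM in Sham and 33.5, 51.4, 149 and 163 CPM in FT. The groups did not overlap, and the difference was largest in replicates 1 and 3. In contrast, Sox10, a transcription factor of the same lineage, had 26.0, 30.8, 18.6 and 28.0 CPM in Sham and 56.4, 46.3, 39.8 and 45.9 CPM in FT, also without overlap. Astrocyte markers had a median of 0.07, with 3 of 11 higher and 4 lower at an unadjusted p under 0.05. They included the potassium channel gene Kcnj10 (log2FC -2.10) and the amino acid transporter gene Slc7a10 (0.93). Microglial markers had a median of 0.22, with 3 of 9 higher and 2 lower at that p. The summed level of the 11 astrocyte transcripts was 23134 CPM in Sham and 43928 CPM in FT of replicate 3, and between 1604 and 6868 CPM in the other libraries. This sum does not describe each member. In the regional levels, Gja1 ranged from 279 to 374 CPM and Agt from 390 to 1297 CPM over the Sham VMH libraries. The 17 oligodendrocyte transcripts summed to 1162 to 1477 CPM in Sham and 770 to 1323 CPM in FT.

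The FT response of the VMH was then compared with that of the LH and of the region labelled PVN by an interaction term. No library was shared, but samples of a replicate number came from the same animals in each region. The Sham libraries labelled PVN had a median of 0.22 CPM of Avp and 0.26 CPM of Oxt, the defining peptides of the hypothalamic paraventricular nucleus, but 412 CPM of the thalamic marker Tcf7l2, so that the measured genes go against a hypothalamic reading of that label. Between VMH and LH edgeR called 0 of 14436 transcripts, with 175 at an unadjusted p under 0.05 (1.21%), and DESeq2 called 2 of 25530 (0.00783%), Slc6a3 among them. Between VMH and PVN edgeR called 0 of 14709 transcripts, with 88 at an unadjusted p under 0.05 (0.598%), and DESeq2 called 0. Of the 40 genes and peptides compared with the LH, 33 had the same sign of log2FC in both regions. These genes came from a list of genes altered in 2 or more regions and the regions share animals, so the count is a description. For 36 of 40 the difference was within 2 standard errors, which does not show that the responses were equal.

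The exceptions were peptide genes, but all 17 peptide transcripts tested were among the genes compared. No peptide pattern is read from the exceptions, and edgeR called none of them. Gal had a log2FC of 1.08 in the VMH and -0.16 in the LH, a difference of 1.26 with a standard error of 0.34 (unadjusted p = 0.00279, edgeR adjusted p = 0.999). In the PVN-labelled region the log2FC of Gal was 1.42 with a standard error of 0.70. Its difference between the VMH and that region was -0.30 with a standard error of 0.77, so no rise particular to the VMH is read. Npvf had 1.03 in the VMH and -1.98 in the LH, where Sham replicate 1 had 9.41 CPM and no other library passed 4 CPM. Oxt had 1.32 in the VMH and -0.0013 in the LH, and Vip -0.43 and 0.94. Unlike Gal, Npvf and Oxt, the other peptide genes named as higher in each VMH pair had a positive log2FC in the LH. The LH values were 1.49 for Avp, 1.62 for Cck, 1.10 for Vgf and 0.84 for Hcrt, none of them called there. The dopamine transporter gene Slc6a3 did not pass the low-count filter in the VMH, where it had 1, 2, 6 and 7 reads in Sham and 2, 16, 29 and 20 in FT. It entered the joint fit through the LH, where Sham had up to 10.95 CPM, and no difference is read from its values. Other differences from the LH with the smallest p, none of them called, were 1.46 for Th and 1.16 for Abl2, and -1.12 for Scn4b, -1.35 for the adenosine receptor gene Adora2a, -1.13 for Ncl, -0.77 for Id3 and -1.67 for the choline transporter gene Slc5a7. Differences from the PVN-labelled region, again none of them called, included 2.80 for Cga, 1.94 for Cartpt and -1.88 for Kcnj13. In the VMH, Cga had 14.2, 9.15, 25.3 and 23.5 CPM in Sham and 4.55, 7.30, 9.54 and 55.6 CPM in FT. It was thus lower in FT in all pairs but pair 5, and FT of the PVN-labelled region had at most 0.61 CPM. Kcnj13 had at most 2.65 CPM in the VMH. No stronger response of the VMH is read from these values. Slc6a3 and Sostdc1 did not pass the filter in the VMH and are not compared. Mat2a and Trove2 had differences between VMH and LH of -0.05 each, with standard errors of 0.70 and 0.36.

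**Figure D5:**
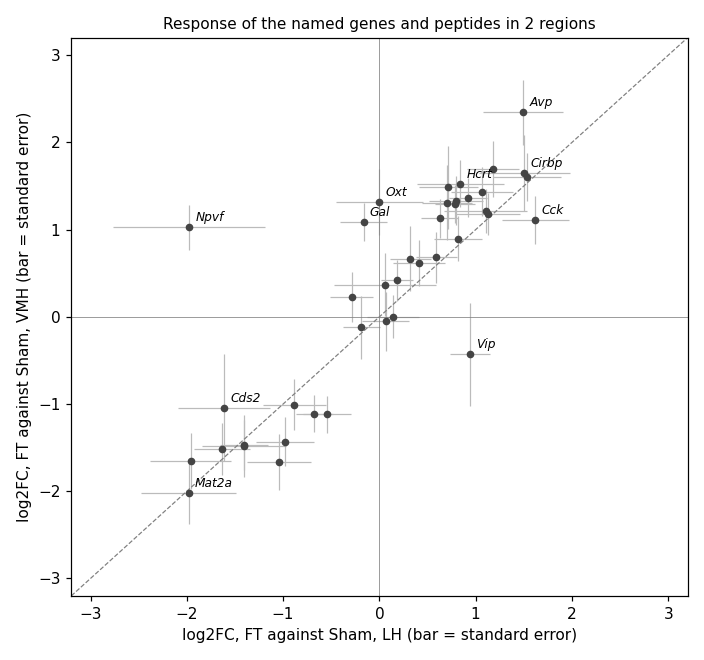
log2FC of FT against Sham in the VMH (vertical axis) against that in the LH (horizontal axis) for 40 genes, with bars of 1 standard error and a dashed line of equal response. Npvf, Gal and Oxt lie above the line and Vip below it, and 33 of 40 genes lie in the quadrants of equal sign.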

How the data were processed

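The authors aligned paired-end reads of 76 bp with STAR to rn5 and deposited raw counts per transcript made with HTSeq, per the labels. Versions and the strand setting are not given in the sources used here. The study's methods and the extract protocol name a stranded total RNA kit, while the labels give the molecule as polyA RNA. The deposited counts carry no normalization. The 5 summary lines of each file were removed. Ambiguous reads made up 3.12% to 7.37% of the VMH libraries and reads outside features 18.7% to 46.7%.

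Low transcripts were removed by filterByExpr (at least 10 reads, 15 in total), and the main test was the quasi-likelihood test of edgeR 4.0.16 (R 4.3.3), run with TMM scaling and a term for the replicate number and with Benjamini-Hochberg adjustment across the table. DESeq2 1.42.0, the tool of the study's methods, served as the alternative with the same term, run on the counts before filterByExpr. Both were run on simulated data in which a changed transcript differed equally in every pair. The measured pairs did not share such a response, so that run does not weigh 1 tool's calls against the other's. Standard errors of log2FC were derived from the F statistic. CPM use the TMM factors, and pair ratios are differences of log2 CPM with a prior count of 2. The number of reads limits the precision for low transcripts.

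The pairing comes from the study's methods, by which the Sham and FT samples of a replicate were handled side by side and replicate numbers were batches. Deviations of same-numbered FT and Sham samples from their group means correlated with r of 0.49, 0.78, 0.76 and 0.43 in replicates 1, 3, 4 and 5. Replicate 5 correlated best with number 4, and the others with their own number. In Sham VMH and LH, r lay between 0.80 and 0.86.

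Names came from the study's supplementary table of genes altered in 2 or more regions, in which 1844 transcripts are named. Named are the 8 higher and 8 lower transcripts of smallest p among those with 4 of 4 pairs in 1 direction, 7 genes from the study, up to 4 of smallest p in each list, all traced neuropeptides, and the 5 largest differences each way in the other comparisons. An ion channel gene of this rule is not reported here. Members and lists were chosen with earlier results of these data known. Regional levels left out 1 Sham library with fewer than 100000 reads. Promoter sequences are from RefSeq (GRCr8) and all 4 symbols matched. Alternatives were DESeq2, no block, median-ratio factors, no filter, a stricter adjusted p (0.05), omission of each replicate, and, chosen after seeing the data, pairs 1 and 3 or 4 and 5 alone, and normalization without Avp. Figures used matplotlib 3.10.9.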

Additional observations from a re-analysis of the deposited data

Results flagged for a closer look

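In groups of 4 samples, a sample was singled out when its gap to the nearest other sample took more of the group's range than Dixon's 95% critical value for 4 samples. Of 48 groups tested, 8 were singled out, and chance alone singles out about 1 group in 20. Of the 8, 7 concern replicate 3. Avp was 1289 CPM in Sham replicate 3, with the other Sham samples between 9.42 and 15.8, and 11374 CPM in FT replicate 3, with the others between 30.0 and 124. Hcrt was 839 CPM in Sham replicate 3 and 1840 CPM in FT replicate 3, with the others at 9.80 to 89.5 and 35.1 to 196. Cds2 was 79.5 CPM in Sham replicate 3 and 89.2 CPM in FT replicate 3, with no other sample above 5.52. The 50 most abundant transcripts took 62.7% of the counts of FT replicate 3, against 26.1% to 29.7% in the other FT samples. Napb was 6.32 CPM in Sham replicate 1, below the 27.3 to 31.4 CPM of the other Sham samples.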

How the results depend on the processing

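The count of DEGs in the VMH was 0 with edgeR in the fit with pairs, without the replicate block (0), with median-ratio factors, at an adjusted p of 0.05, without Avp in the normalization and when any replicate was left out (0 to 0). It was 550 with DESeq2, 136 without the low-count filter, 6399 in pairs 1 and 3 and 2603 in pairs 4 and 5. Of 11967 transcripts tested in both sets of pairs, 1274 were called in both, 538 in the same direction and 736 in opposite directions. The pairs were grouped after their ratios had been seen, so the counts of these sets are a description and no measure of a shared response. The cause of the differences between the counts was not tested. For Sham VMH against LH, 1515 transcripts were called, 0 without the replicate block, and 798 to 1474 when a replicate was left out. The interaction with LH gave 2 calls with DESeq2 and 3 without the filter, and that with PVN gave 2 without the filter. Without the block, the median log2FC was 0.53 for chromatin regulators and 0.48 for ubiquitin and proteasome genes. Signs turned for genes with no edgeR call. Without the block, Cds2 was at 0.036, Pcsk2 at 0.080, PENK at 0.16 and Chga at 0.41. With DESeq2, PENK was at 0.012 and Chga at 0.062, with median-ratio factors at 0.0077 and 0.060, and Chga was at 0.0047 without the filter. With a replicate left out, Vip ranged from -0.92 to 0.35, Pcsk2 from -0.41 to 0.25, PENK from -0.27 to 0.34 and Chga from -0.26 to 0.47. Of 36 named genes, 34 kept their sign with DESeq2, which called 27, 35 without the filter, which called 24, and 32 without the block.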
